A study of Bos taurus with 40 samples.

Results

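The genes followed here encode parts of the DNA replication machinery, measured through the luteal phase in bovine endometrium, the inner lining of the uterus. They are 9 of the 32671 named genes in the count table, chosen by name with earlier results of these data known. They include the 6 subunits of the replicative helicase (MCM2, MCM3, MCM4, MCM5, MCM6 and MCM7). The others are the sliding clamp PCNA and 2 enzymes of nucleotide supply (TYMS and RRM2). All 9 were found in the table and passed the filter on low counts in every fit. The libraries came from heifers brought into estrus together, with both uterine horns sampled on days 5, 7, 13 and 16, and the series asked whether the horns differ. The ipsilateral horn is the one next to the ovary that carries the corpus luteum, a progesterone-secreting gland, and the contralateral horn is the opposite one. This gave 8 groups of 5 libraries, named by horn and day. The labels speak of pregnancy days where the design text counts from estrus, and the presence of embryos is not stated. The synchronization was shared by all groups, and no genetic change or other drug treatment separates them. The tissue was whole endometrium, so that a lower level of a gene may mean fewer cells that use it or less RNA per cell, and these cannot be told apart.

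Before a cell copies its DNA, the 6 MCM proteins are loaded onto replication origins as a ring, which later unwinds the double helix at the fork. PCNA encircles the DNA behind it and holds the polymerases in place. The building blocks come from enzymes such as ribonucleotide reductase, whose large subunit is RRM1 and whose S-phase small subunit is RRM2, and thymidylate synthase (TYMS), which makes the thymidine precursor. In the endometrium, cells divide around estrus and early in the luteal phase, under estrogen and then progesterone.

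Each library held 27.03 to 64.4 M reads assigned to genes, and the deepest, tag 3-175 of the ipsilateral horn on day 5, stood apart from the second deepest at 41.3 M. Epithelial, stromal and endothelial markers were detected in every library, and hemoglobin HBA stayed below 0.5 CPM throughout. The 3 red cell markers, HBA among them, summed to at most 1.535 CPM in a library. The ipsilateral day 5 library of tag 8-1350 held 2245 CPM over 6 smooth muscle markers, against 383.5 to 448.4 CPM in the other 4 libraries of its group. The tags in the sample names, which the design text implies are heifers, paired the horns poorly. Deviations from the group means correlated above 0.1 between the libraries of a tag for 5 of 20 tags, and the best match of an ipsilateral library in the other horn carried its own tag in 5 of 20 cases. In the other 15 cases the best match carried another tag, with r up to 0.734. Whether tags or horn labels of some libraries were exchanged was not tested. An exchange would change what a horn difference, the replicate block and the sums of both horns by tag compare. The tests between horns therefore treat the 40 libraries as separate and are not comparisons within an animal. The tests between days use 1 horn at a time, with 1 library per tag. Levels are given as CPM, counts scaled to library size with TMM factors, and they cannot be compared between genes because no transcript lengths were used. Calls are edgeR quasi-likelihood tests with Benjamini-Hochberg adjusted p below 0.05, and changes are log2 fold changes ± standard error.

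The mean level of every helicase gene was highest on day 5 in both horns. MCM2, on day 5 in the contralateral horn, stood at 66.55, 68.16, 74.87, 79.98 and 86.48 CPM. On day 7 that horn had 35.77, 37.42, 40.24, 51.44 and 54.06 CPM, and on day 13 it had 22.86, 23.99, 29.58, 31.36 and 34.29 CPM. The 3 days did not overlap in that horn. In the ipsilateral horn MCM2 went from 41.12, 44.72, 48.32, 50.8 and 67.11 CPM on day 5 to 28.95, 29.41, 33.82, 36.72 and 45.68 CPM on day 7 and 16.37, 21.43, 24.77, 25.81 and 30.23 CPM on day 13. There the neighbouring days overlapped, and days 5 and 13 did not. On day 16 MCM2 was at 29.3 ± 8.60 CPM (SD, n = 5) in the ipsilateral and 34.1 ± 7.76 CPM in the contralateral horn. This was above day 13 on average, but the ranges of the days overlapped in both horns.

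**Figure D1:**
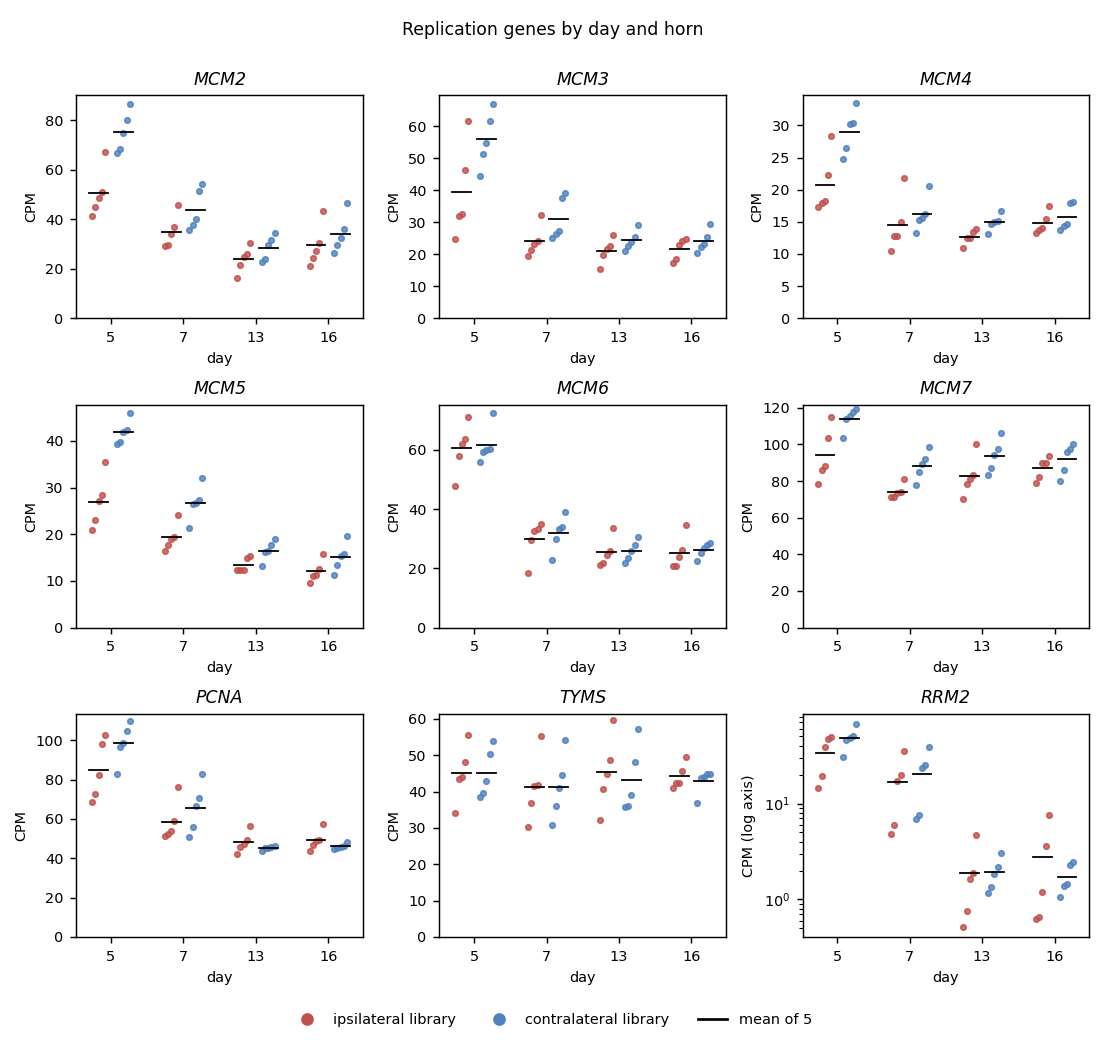
Level in CPM of each of the 9 genes (y axis, on a log axis for RRM2 only) against day, with 1 point per library (red ipsilateral, blue contralateral) and a line at the mean of 5. In 8 of the 9 panels the means are highest on day 5, with the widest swing for RRM2, while TYMS stays between 30.27 and 59.84 CPM in all 40 libraries.

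From day 5 to day 7, 8 of the 9 genes fell in the contralateral horn, where 9.58% of all 19559 genes tested were lower, and 7 of the 9 in the ipsilateral horn, where 13.7% of 19733 were lower. None of the 9 was higher, against 10.8% and 15% of all genes. The median over the 9 was -0.77 in the contralateral and -0.53 in the ipsilateral horn, and over all genes 0.00 and -0.02. All 6 helicase subunits fell in both horns.

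MCM6, the sixth ring subunit, fell furthest of the 6 in this step. Its 5 ipsilateral values were 47.86, 57.79, 62.02, 63.82 and 71.27 CPM on day 5 and 18.3, 29.72, 32.45, 33.38 and 34.85 CPM on day 7, and the days did not overlap in either horn. This was a change of -1.03 ± 0.18 (adjusted p = 0.000423) in the ipsilateral and -0.95 ± 0.12 (adjusted p = 5.69e-05) in the contralateral horn. MCM2 changed by -0.77 ± 0.15, MCM3 by -0.84 ± 0.14, MCM4 by -0.84 ± 0.12 and MCM5 by -0.64 ± 0.13 in the contralateral horn (adjusted p from 0.000125 to 0.0024). In the ipsilateral horn the changes were -0.53 ± 0.19, -0.72 ± 0.21, -0.52 ± 0.17 and -0.49 ± 0.15 in the same order (adjusted p from 0.0154 to 0.0449). The ipsilateral calls leaned on single libraries: without the deep day 5 library 3-175 only MCM6 and PCNA passed, 2 of 9, and without the day 7 library 2-1337, 4-064 or 6-338 4 of 9 passed. The contralateral calls of the 6 subunits and of PCNA held without each of the 10 libraries in turn.

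MCM7 moved least of the ring. It had 103.6, 114.0, 115.6, 117.6 and 119.2 CPM in the contralateral horn on day 5 and 77.64, 84.74, 89.06, 92.0 and 98.75 CPM on day 7, with no overlap, a change of -0.36 ± 0.08 (adjusted p = 0.00436). In the ipsilateral horn the change was -0.35 ± 0.10 (adjusted p = 0.0151), with an overlap of the ranges. After day 7 it did not fall again: its mean was 82.7 ± 11.1 and 86.8 ± 6.13 CPM on days 13 and 16 in the ipsilateral horn, against 74.2 ± 3.94 CPM on day 7. Over all 40 libraries the highest MCM7 value was 1.70 times the lowest, against 3.22 to 5.28 times for the other 5 subunits. In the reference annotation (ARS-UCD2.0, used for names only) MCM7 contains the microRNA genes MIR106B, MIR93 and MIR25, whose own rows held group means of 0.587 CPM or less.

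PCNA, the clamp, fell with the helicase. Its 5 contralateral values were 82.94, 96.71, 98.67, 104.8 and 109.9 CPM on day 5, 50.8, 56.08, 66.71, 70.78 and 82.65 CPM on day 7 and 43.64, 45.29, 45.47, 45.75 and 46.19 CPM on day 13. No value of one day reached those of another. The step from day 5 to day 7 was -0.59 ± 0.10 (adjusted p = 0.000518) in the contralateral and -0.54 ± 0.12 (adjusted p = 0.00382) in the ipsilateral horn. On day 13 the contralateral libraries differed by less than 3 CPM from one to the other, the tightest of the 8 groups (SD 0.970 CPM, n = 5).

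From day 7 to day 13, fewer of the 9 genes passed. MCM2, MCM5 and RRM2 fell in both horns and PCNA in the contralateral horn, 3 of 9 in the ipsilateral (14.0% of all genes lower) and 4 of 9 in the contralateral horn (17.5% lower). MCM3, MCM4, MCM6, MCM7 and TYMS did not pass in either horn, and whether they differed from the others in this step was not tested. In the contralateral horn MCM3 (-0.34 ± 0.14, adjusted p = 0.0733) and MCM6 (-0.30 ± 0.12, adjusted p = 0.0661) missed the threshold by edgeR and passed by DESeq2 (adjusted p = 0.0498 and 0.0414), which called 6 of 9 there. Both also passed in that horn without day 7 library 5-117 or day 13 library 8-275, and MCM3 without day 7 library 4-064. MCM5 had 16.48, 17.74, 18.91, 19.34 and 24.13 CPM on day 7 in the ipsilateral horn and 12.24, 12.24, 12.28, 14.84 and 15.41 CPM on day 13. The days did not overlap in either horn, and the changes were -0.51 ± 0.15 (adjusted p = 0.0156) and, contralaterally, -0.70 ± 0.13 (adjusted p = 0.000416). MCM2 changed by -0.54 ± 0.19 (adjusted p = 0.0431) and -0.62 ± 0.15 (adjusted p = 0.00385), and its ipsilateral call was lost without day 7 library 2-371 or 5-117 or day 13 library 4-1314 or 5-140 (adjusted p from 0.0582 to 0.0989). PCNA changed by -0.53 ± 0.10 (adjusted p = 0.000402) in the contralateral and by -0.27 ± 0.12 (adjusted p = 0.121) in the ipsilateral horn.

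**Figure D2:**
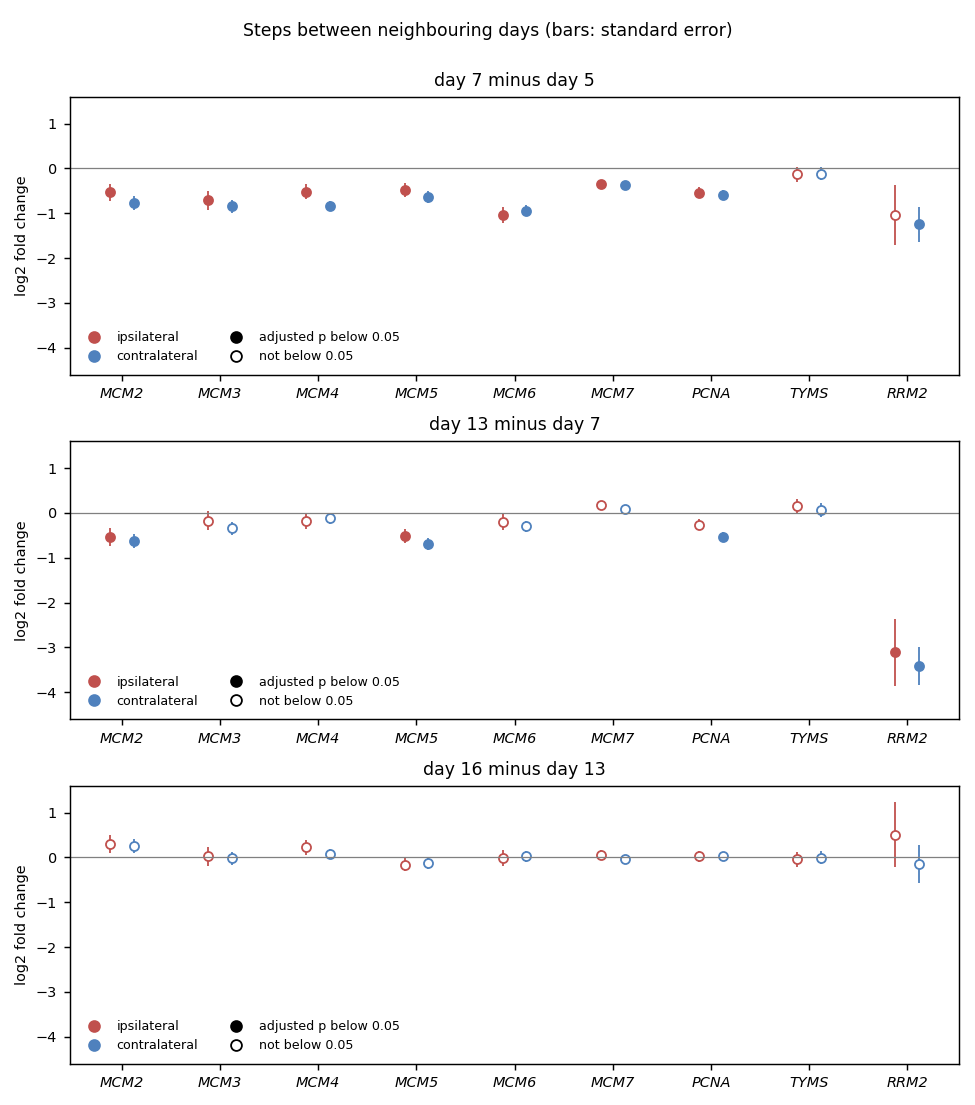
Log2 fold change (y axis; bars, standard error) of each gene for the 3 steps between neighbouring days, in the ipsilateral (red) and contralateral (blue) horn; filled points passed at adjusted p below 0.05 and open ones did not. MCM6 lies lowest of the MCM genes in the first panel at -1.03 and -0.95, RRM2 leads the second panel, and no point is filled in the third.

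RRM2, the S-phase subunit of ribonucleotide reductase, had the widest swing of the 9, from 67.06 CPM in the highest library to 0.518 CPM (16 reads) in the lowest. On day 5 it had 30.64, 45.49, 48.57, 50.87 and 67.06 CPM in the contralateral and 14.44, 19.42, 39.19, 47.47 and 49.68 CPM in the ipsilateral horn. On day 7 each horn held 2 low and 3 high libraries, with 4.78, 5.92, 17.2, 19.9 and 35.1 CPM in the ipsilateral and 6.95, 7.682, 23.32, 24.98 and 38.89 CPM in the contralateral horn. The ranges of days 5 and 7 overlapped in both horns. The step was -1.25 ± 0.39 in the contralateral horn (adjusted p = 0.0274), a call lost without day 5 library 1-315, 4-184 or 7-300 or day 7 library 4-064 or 5-117 (adjusted p from 0.0501 to 0.0688), and -1.04 ± 0.68 in the ipsilateral horn (adjusted p = 0.264).

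On day 13 RRM2 had fallen to 0.518, 0.751, 1.64, 1.87 and 4.75 CPM in the ipsilateral and 1.16, 1.33, 1.86, 2.18 and 3.02 CPM in the contralateral horn. Every one of these lay below every day 7 value of its horn, although the highest ipsilateral value came to within 0.1 CPM of the lowest day 7 one. This was a change of -3.10 ± 0.75 (8.60-fold lower, adjusted p = 0.00396) and -3.41 ± 0.43 (10.7-fold lower, adjusted p = 5.75e-06), and both calls held without each library in turn. From day 5 to day 13 the fall was 17.7-fold in the ipsilateral (-4.14 ± 0.78, adjusted p = 0.000346) and 25.3-fold in the contralateral horn (-4.66 ± 0.45, adjusted p = 1.57e-07).

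TYMS did not pass in any comparison. It had 34.11, 43.39, 43.92, 48.23 and 55.6 CPM in the ipsilateral horn on day 5 and 32.32, 40.74, 44.84, 48.79 and 59.84 CPM on day 13. Group means ran from 41.2 to 45.3 CPM over the 8 groups. The change from day 5 to day 13 was 0.02 ± 0.16 in the ipsilateral horn, with a 95% interval of -0.32 to 0.36, and -0.05 ± 0.15 in the contralateral horn, with an interval of -0.36 to 0.25. In the reference annotation TYMS overlaps ENOSF1, whose mean went from 17.95 ± 4.23 CPM to 26.4 ± 5.35 CPM between those days in the ipsilateral horn. The library kit kept strand, but the strand setting of the counting is not stated, so that reads of the shared stretch cannot be told apart.

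From day 13 to day 16, none of the 9 passed in either horn, where 0.253% and 1.07% of all genes were lower and, contralaterally, 0.608% higher. No member had an unadjusted p below 0.05 there, and DESeq2 and limma-voom called 0 as well. Against day 5, day 16 repeated most of the day 13 picture. In the contralateral horn 8 of 9 were lower on day 13 (22% of all genes lower) and 8 of 9 on day 16 (22.5%). In the ipsilateral horn 7 of 9 were lower on day 13 (19.7%) and 7 of 9 on day 16 (19.2%), without MCM7 and TYMS. The ipsilateral MCM4 call on day 16 (-0.49 ± 0.17, adjusted p = 0.0314) was lost without any of day 5 libraries 3-175 and 4-184 and day 16 libraries 2-068, 7-107 and 8-245 (adjusted p up to 0.104). Against day 7, day 16 was lower for MCM5 and RRM2 in the ipsilateral horn, 2 of 9 (15.9% of all genes lower), and for MCM5, PCNA and RRM2 in the contralateral horn, 3 of 9 (19.7%). Contralaterally MCM2 and MCM3 passed as well without day 7 library 2-371 or 4-064 or day 16 library 2-068, and MCM3 and MCM6 without day 7 library 5-117.

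The ipsilateral day 16 library of tag 5-137 had the highest RRM2 of its group at 7.60 CPM, where the other 4 had 0.629, 0.649, 1.21 and 3.64 CPM. It also held the highest MCM5 (15.8 CPM), MCM6 (34.8 CPM) and PCNA (57.2 CPM) of that group. The member counts of the ipsilateral day 16 comparisons were the same without it.

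Between horns, the helicase genes other than MCM6 were lower in the ipsilateral horn on day 5. Of the 9, 5 passed as lower (10.4% of all 20356 genes lower, 12.3% higher), and all 5 were ring subunits. MCM5 had 20.86, 23.13, 27.1, 28.35 and 35.43 CPM in the ipsilateral and 39.26, 39.73, 41.93, 42.26 and 45.93 CPM in the contralateral horn. Its ranges did not overlap between horns, and the difference was -0.63 ± 0.14 (1.55-fold lower, adjusted p = 0.0013). How often this occurred over all genes was not counted. MCM2 differed by -0.58 ± 0.18 (adjusted p = 0.017), MCM3 by -0.50 ± 0.18 (adjusted p = 0.0422), MCM4 by -0.48 ± 0.15 (adjusted p = 0.0165) and MCM7 by -0.28 ± 0.09 (adjusted p = 0.0258).

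The remaining subunit did not pass. MCM6 had 47.86, 57.79, 62.02, 63.82 and 71.27 CPM in the ipsilateral and 55.75, 59.18, 60.12, 60.28 and 72.54 CPM in the contralateral horn, a difference of -0.02 ± 0.15 with a 95% interval of -0.34 to 0.29. Whether MCM6 differed from the other subunits in this was not tested. PCNA stood at -0.22 ± 0.12 (adjusted p = 0.188), TYMS at 0.00 ± 0.16 and RRM2 at -0.51 ± 0.56 (adjusted p = 0.579).

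The day 5 calls of MCM2 and MCM5 held without each of the 10 libraries in turn. MCM3 lost its call without ipsilateral 1-315, 7-300 or 8-1350 or contralateral 1-315, 4-184 or 7-300 (adjusted p up to 0.144), MCM4 without ipsilateral 7-300 or 8-1350 (adjusted p up to 0.0516), and MCM7 without ipsilateral 1-315, 4-184 or 7-300 or contralateral 1-315 or 3-175 (adjusted p up to 0.103). The count fell to 3 without ipsilateral 1-315 or 8-1350 or contralateral 1-315 and to 2 without ipsilateral 7-300. From the 10 libraries of day 5 alone 2 passed, MCM2 and MCM5.

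**Figure D3:**
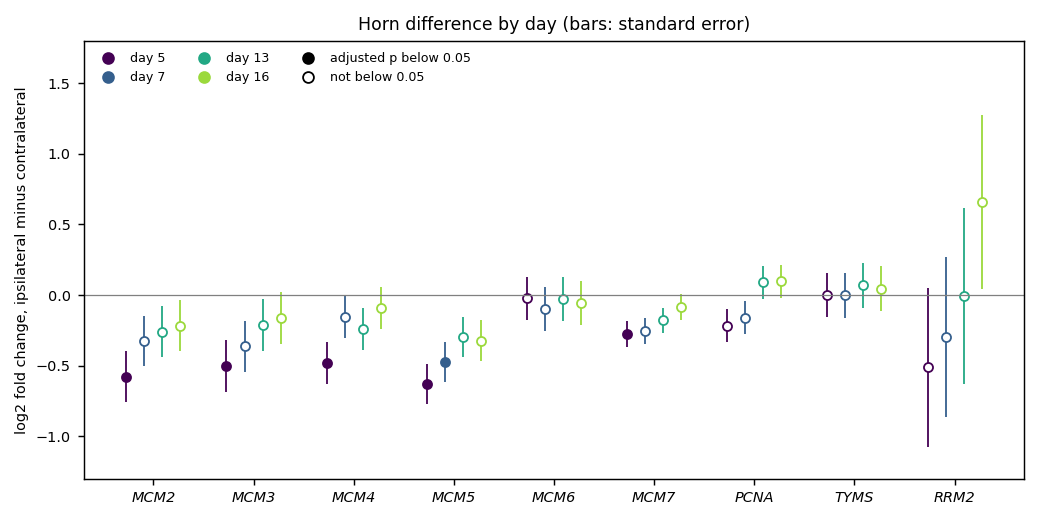
Log2 fold change of the ipsilateral against the contralateral horn (y axis; bars, standard error) for the 9 genes on days 5, 7, 13 and 16; filled points passed at adjusted p below 0.05. On day 5 the filled points of MCM2, MCM3, MCM4, MCM5 and MCM7 lie between -0.63 and -0.28 and MCM6 lies at -0.02, and on day 7 only MCM5 is filled.

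On day 7 MCM5 alone passed, 1 of 9 (4.20% of all genes lower), at -0.47 ± 0.14 (adjusted p = 0.0247). Its ranges overlapped between horns, at 16.48 to 24.13 CPM against 21.31 to 32.12 CPM. The call was lost without ipsilateral 2-1337, 4-064 or 6-338 or contralateral 4-064, 5-117 or 6-338 (adjusted p from 0.0512 to 0.0782), and MCM7 passed as well without contralateral 2-371 (adjusted p = 0.0367). On days 13 and 16 none passed (1.20% and 0.663% of all genes lower). MCM5 was the 1 member with an unadjusted p below 0.05 on each of them, at -0.30 ± 0.14 and -0.32 ± 0.14, and DESeq2 and limma-voom called 0 members. Averaged over the 4 days, 5 of 9 were lower in the ipsilateral horn (18.6% of all genes lower, 19.6% higher), the same 5 subunits as on day 5. MCM5 was at -0.43 ± 0.07 (adjusted p = 8.09e-06), MCM2 at -0.35 ± 0.09, MCM3 at -0.31 ± 0.09, MCM4 at -0.24 ± 0.07 and MCM7 at -0.20 ± 0.05, and these calls held without each of the 40 libraries.

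Whether the horn difference changed with day was tested directly. None of 9 members and 0% of all genes passed in any of the 6 pairs of days by edgeR. No member had an unadjusted p below 0.05 in any pair, and DESeq2 and limma-voom called 0 members in each. Over all 20356 genes, 105 to 1633 had an unadjusted p below 0.05. The low end is fewer than that threshold gives where nothing changes, so these tests may miss changes. For MCM4, day 16 differed from day 5 by 0.39 ± 0.21 in the size of the horn difference (unadjusted p = 0.0721), and for PCNA by 0.31 ± 0.16 (unadjusted p = 0.0641). So the day 5 difference, although it passed and the later ones did not, was not shown to differ from them.

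Markers of other cells are given beside these results. On day 5, 5 of 8 epithelial markers were lower in the ipsilateral horn and none higher, with a summed level of 668 to 990 CPM against 990.2 to 1399 CPM. Of 6 smooth muscle markers 1 was higher, and 1 of 7 stromal markers lower, near the 12.3% higher and 10.4% lower over all genes. Averaged over the days, 6 of 8 epithelial, 4 of 7 stromal and 2 of 5 endothelial markers were lower, against 18.6% of all genes. Reads in microRNA and tRNA genes made up 0.00989 to 0.0122% of the ipsilateral and 0.0082 to 0.00941% of the contralateral libraries on day 5. With that share as a covariate, 1 of 9 members, MCM5, was lower on day 5, none on day 7 and 1 averaged over the days. On day 5 MCM2, MCM3, MCM4 and MCM7 stood at -0.59 ± 0.23, -0.41 ± 0.24, -0.47 ± 0.19 and -0.16 ± 0.11 in that fit. The share did not overlap between horns on days 5, 7 and 13, so that fit cannot tell share and horn apart there. From day 5 to day 7, 4 of 7 stromal and 5 of 6 smooth muscle markers fell in the ipsilateral horn, and 5 of 8 epithelial markers rose and 1 fell. In the contralateral horn 3 of 7 stromal and 2 of 6 smooth muscle markers fell, and 3 of 8 epithelial markers rose and 1 fell. Over all genes 13.7% were lower and 15% higher in the ipsilateral and 9.58% and 10.8% in the contralateral horn.

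From day 7 to day 13, the step at which RRM2 fell furthest, 3 of 8 epithelial markers rose and 1 fell and 1 of 7 stromal markers rose and 1 fell in each horn. Of 5 endothelial markers 1 rose in the ipsilateral and 2 in the contralateral horn. Over all genes 14.0% were lower and 14.6% higher in the ipsilateral and 17.5% and 16.0% in the contralateral horn. The median summed level of the endothelial markers went from 417 to 593.1 CPM in the ipsilateral and from 465.7 to 717 CPM in the contralateral horn, that of the gland markers from 26.05 to 49.64 and from 38.57 to 59.62 CPM, and that of the stromal markers from 16470 to 12250 and from 16520 to 13230 CPM. The median microRNA and tRNA share went from 0.01216 to 0.01499% and from 0.00983 to 0.01176%, and the median mitochondrial share from 0.328 to 0.497% and from 0.2465 to 0.293%. The part of cell makeup and of these shares in the day differences was not tested, nor was that of cell makeup in the horn differences. The part of the microRNA and tRNA share in the horn differences cannot be told from the covariate fit, because the share differs by horn.

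Of 61 listed replication genes outside the 9, 60 were tested. From day 5 to day 7, 19 fell and 2 rose in the ipsilateral horn and 16 fell and 2 rose in the contralateral horn, with medians of -0.21 and -0.29. Over all genes 13.7% were lower and 15% higher in the ipsilateral and 9.58% lower and 10.8% higher in the contralateral horn. From day 7 to day 13, 15 fell and 15 rose in the ipsilateral horn (14.0% of all genes lower, 14.6% higher), and 17 fell and 12 rose in the contralateral horn (17.5% lower, 16.0% higher), with medians of 0.05 and 0.015. Only TK1, which fell, and RRM1, which rose, passed from day 13 to day 16, both in the contralateral horn. Over all genes 1.07% were lower and 0.608% higher in that horn.

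Of the genes that load the helicase, those named here passed and were picked by size of change, and they moved in both directions. CDC6 and CDT1, which bring the ring to origins, changed by -1.70 ± 0.38 and -1.62 ± 0.32 from day 7 to day 13 in the ipsilateral and by -1.94 ± 0.37 and -1.56 ± 0.27 in the contralateral horn. The origin subunit ORC1 fell (-1.33 ± 0.48 and -1.51 ± 0.33). GMNN, which encodes the CDT1 inhibitor geminin, rose by 0.94 ± 0.19 and 0.72 ± 0.19. MCMBP, whose product binds MCM proteins, rose from day 5 to day 7 by 1.00 ± 0.12 and 0.99 ± 0.11 and fell from day 7 to day 13, at -0.78 ± 0.12 and -0.77 ± 0.11, opposite in its first step to the ring subunits.

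At the fork, RECQL4 (-1.72 ± 0.43 and -1.64 ± 0.31) and CLSPN, the checkpoint adaptor claspin (-1.18 ± 0.32 and -1.14 ± 0.29), fell from day 7 to day 13 in the ipsilateral and contralateral horn. POLE, the leading-strand polymerase, fell (-1.84 ± 0.34 and -1.95 ± 0.23). The primase gene PRIM1 rose by 0.60 ± 0.11 and 0.52 ± 0.12. Among partners of PCNA, RFC1, the large subunit of the clamp loader, rose by 0.77 ± 0.07 and 0.73 ± 0.10. The flap nuclease FEN1 fell (-0.51 ± 0.15 and -0.63 ± 0.09), and the ligase LIG1 rose by 0.62 ± 0.10 and 0.46 ± 0.10.

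In nucleotide supply, RRM1, the partner of RRM2, went from 177.7 to 147.6 CPM on average between days 5 and 7 in the ipsilateral and from 201.0 to 161.7 CPM in the contralateral horn. Neither change passed (-0.27 ± 0.14, adjusted p = 0.144, and -0.31 ± 0.13, adjusted p = 0.11). It had 150.4, 176.8, 178.4, 212.7 and 233.9 CPM on day 13 and 231.3, 239.4, 241.4, 333.1 and 367.3 CPM on day 16 in the ipsilateral horn. Its contralateral change between those days was 0.57 ± 0.13 (adjusted p = 0.0335) and its ipsilateral one 0.56 ± 0.14 (adjusted p = 0.0837). From day 7 to day 13 it rose by 0.38 ± 0.14 in the ipsilateral horn (adjusted p = 0.0423), while RRM2 fell, and the contralateral value was 0.30 ± 0.13 (adjusted p = 0.0867). RRM2B, the small subunit used outside S phase, rose by 0.34 ± 0.11 and 0.44 ± 0.15 over the same step. TK1, thymidine kinase, changed by -0.79 ± 0.14 from day 13 to day 16 in the contralateral horn (adjusted p = 0.00673). DUT, which removes dUTP, fell (-0.43 ± 0.14 and -0.80 ± 0.14) from day 7 to day 13.

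Mitosis genes fell at the same step as RRM2. Of 10 listed, 9 fell and none rose from day 7 to day 13 in each horn, with medians of -2.53 and -2.72, against 14.0% and 17.5% of all genes lower. From day 5 to day 7 none fell, and 2 rose in the ipsilateral and 1 in the contralateral horn, where 15% and 10.8% of all genes were higher. MKI67, the proliferation antigen, fell (-3.97 ± 0.64 and -4.01 ± 0.49), and so did TOP2A, a topoisomerase of dividing cells (-4.01 ± 0.64 and -4.25 ± 0.51). E2F8, a repressor of the E2F family that controls S-phase genes, fell (-3.67 ± 0.57 and -3.37 ± 0.53), and so did E2F2 (-2.36 ± 0.51 and -2.26 ± 0.40). Of 17 listed E2F and RB genes, 8 fell and 4 rose in the ipsilateral and 10 fell and 3 rose in the contralateral horn, where 14.6% and 16.0% of all genes were higher. UHRF1, which helps maintain DNA methylation at the fork, fell (-2.13 ± 0.34 and -2.37 ± 0.27). Of 7 listed CDK inhibitor genes, CDKN1A, picked by size of change, rose by 1.00 ± 0.24 in the contralateral horn. It does not stand for the list, whose counts are not given here.

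**Figure D4:**
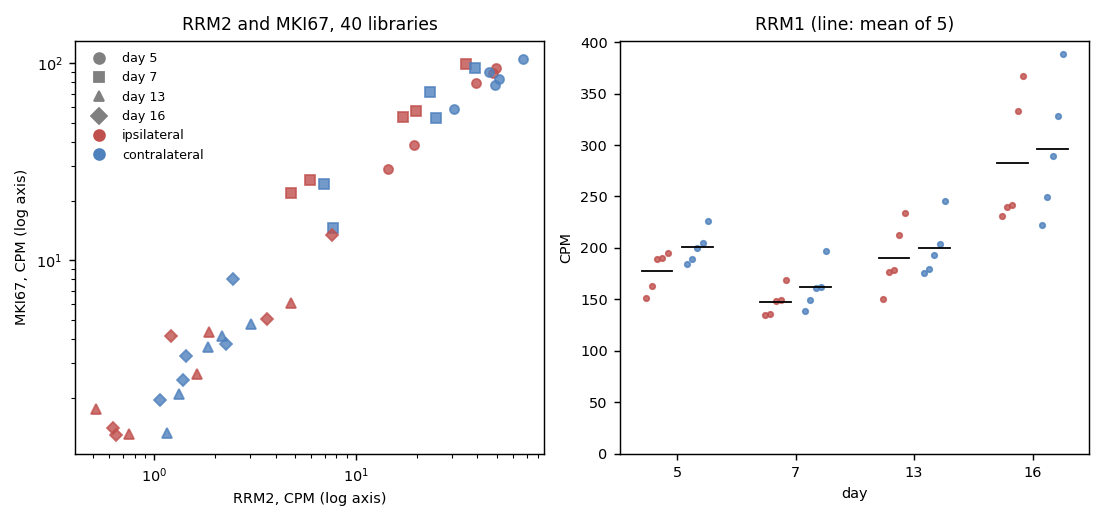
Left, RRM2 against MKI67 in CPM (both log axes), 1 point per library, shaped by day and coloured by horn; right, RRM1 in CPM by day, 1 point per library with a line at the mean of 5. The libraries of days 5 and 7 lie at or above 4.78 CPM RRM2, those of days 13 and 16 at or below 7.60 CPM, and RRM1 is highest on day 16.

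Between horns, on day 5, 7 of the 60 were higher and 8 lower in the ipsilateral horn, with a median of -0.15. Both counts were near the shares over all genes, 12.3% higher and 10.4% lower. Averaged over the days 16 were higher and 16 lower, where 19.6% of all genes were higher and 18.6% lower. FEN1 (-0.33 ± 0.06), POLD1 (-0.24 ± 0.08) and CDT1 (-0.39 ± 0.15) were lower, as the 5 helicase subunits were. RFC1 (0.55 ± 0.04), ORC4 (0.40 ± 0.04), DBF4, a subunit of the kinase that fires origins (0.50 ± 0.11), PRIM1 (0.45 ± 0.06) and RRM2B (0.31 ± 0.06) were higher.

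Across the 40 libraries the members varied together, as a description and with no test, since the points share their day. Pearson's r of log2 CPM over the 36 pairs had a median of 0.81 (0.02 to 0.93), and MCM3 and MCM4 were the closest pair. TYMS had a median of 0.19 with the other 8 and MCM7 of 0.46. After the group means were subtracted, the median over the pairs was 0.47 (-0.51 to 0.80). MCM3 and MCM4 were again closest, at 0.80. TYMS, flat in time, followed MCM6 (0.62) and MCM2 (0.53) from library to library. MCM7 stood apart from the ring, at -0.32 with MCM6 and -0.51 with RRM2. RRM2 followed MKI67 at 0.98 over the libraries and 0.94 within groups, and RRM1 at -0.46 and -0.04.

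**Figure D5:**
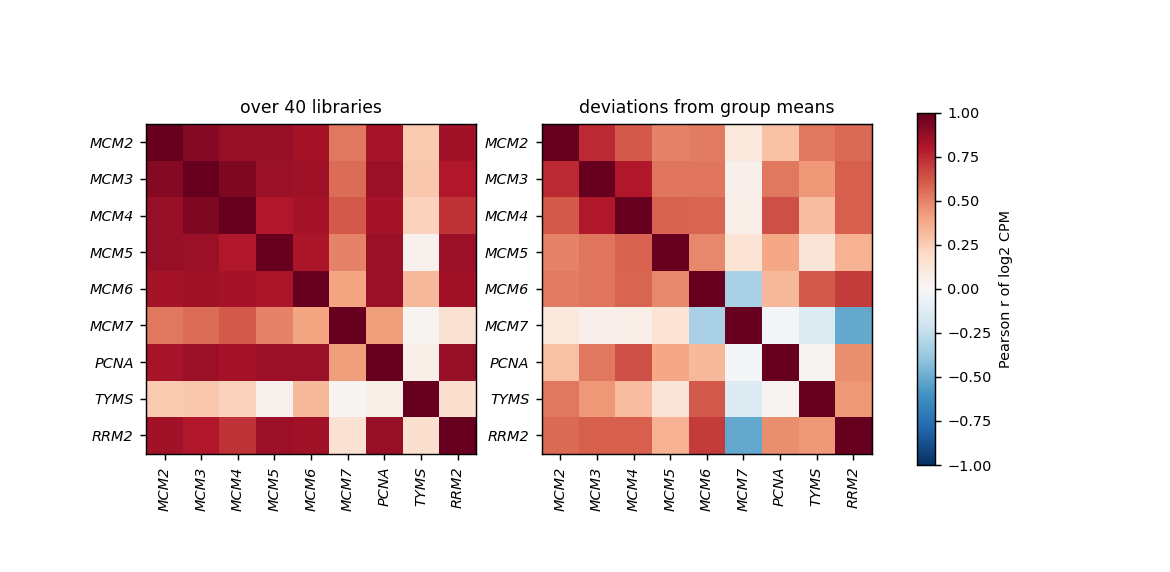
Pearson's r of log2 CPM (colour, from -1 in blue to 1 in red) for each pair of the 9 genes, over the 40 libraries on the left and over their deviations from the 8 group means on the right. TYMS is pale on the left, with a median of 0.19, and MCM7 is pale or blue against all others on the right, down to -0.51 with RRM2.

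By the mean of the 9 scaled profiles, the most alike of 16313 other genes over the 40 libraries were CKAP4 (r = 0.95), TUBB (0.95), P4HA2 (0.95), TUBA1B (0.94) and MGAT5B (0.94), none of them a replication gene by its known role. Within groups they were RCC1 (0.84), FANCA (0.82), KIFC1 (0.80), RECQL4 (0.79) and WDHD1 (0.79). The first list shares the day pattern of the groups, and the second is free of the group means.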

How the data were processed

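Endometrium of both uterine horns was measured by RNA-seq in 40 libraries. The authors deposited raw counts of reads per gene, made with FastQC, HISAT2 and featureCounts on the bovine build UMD3.1, per the submitters' processing notes; neither versions nor the strand setting is stated. The kit was stranded and selected poly(A) RNA, per the labels' protocols. Counts were used as deposited. A last row without a gene name repeated the sample titles and was dropped. The mitochondrial row (0.0812 to 0.578% of reads) was left out of library sizes and tests. No column repeated another (0 identical pairs), and 27 gene names had turned into dates.

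Counts were tested with edgeR 4.0.16 (R 4.3.3): TMM factors, filterByExpr by group, quasi-likelihood tests, and Benjamini-Hochberg adjustment over all genes tested. Horn differences and their change between days came from 1 fit of 40 libraries and 8 groups (20356 genes), and day differences from 20 libraries of 1 horn (19733 ipsilateral, 19559 contralateral). Intervals are 95%, from the t distribution of the fit. Libraries were taken as separate samples, so p-values measure the spread between them. The libraries of a tag correlated in their deviations at -0.258 to 0.669 (median -0.0465) over 20356 genes, so the tag entered as a replicate block only as an alternative. The alternatives were DESeq2 1.42.0, limma-voom (limma 3.58.1), RLE scaling, no filter, log2 depth or microRNA and tRNA share (801 and 1594 genes) as a covariate, the replicate block, the libraries of the day alone, the fit of all 8 groups for days, horns summed by tag, and each library left out. The edgeR, voom and DESeq2 fits were tested on simulated data.

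The 9 genes and the lists were chosen with earlier results of these data known. The genes named are the 9 in every comparison, up to 4 per list by absolute log2 fold change among those that passed, and the 5 most alike. ENOSF1, the microRNA genes within MCM7 and HBA were named beside these for overlap or tissue checks. GINS1, 1 of the 61 other replication genes, was not analysed here, and 1 result for a listed gene is not reported here. No sequences or coordinates are printed, since only gene names were used from the reference (ARS-UCD2.0).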

Additional observations from a re-analysis of the deposited data

Results flagged for a closer look

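In groups of 5, a library was singled out where its gap to the nearest other library took more than 0.71 of the group's range. This picked 2 of 72 sets of values (9 genes in 8 groups), where chance picks about 1 in 20 groups. MCM6 in the contralateral day 5 library of tag 1-315 was at 72.54 CPM, above the next highest at 60.28 CPM. TYMS in the contralateral day 16 library of tag 5-137 was at 36.96 CPM, below the next lowest at 43.63 CPM. The MCM6 call between days 5 and 7 in that horn held without each library in turn, and TYMS passed in no comparison. No gene had a horn difference that changed with day past the threshold.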

How the results depend on the processing

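Of 153 values of the 9 genes in 17 comparisons, 68 passed and none changed sign past the threshold under any alternative. With the replicate block, the paired fit by tag, all 45 horn values kept their call, and 5, 1, 0, 0 and 5 members passed on days 5, 7, 13 and 16 and on average. limma-voom changed no call, and DESeq2 added 5 and lost none. Summing the horns by tag added 15 calls and lost none. The same summed fit was set against each horn, so a gene and step that passed in neither horn alone is counted once per horn. RRM2 between days 5 and 7 in the contralateral horn lost its call in the fit of all 8 groups (adjusted p = 0.122). With log2 depth as a covariate, the ipsilateral calls of MCM2 and MCM4 from day 5 to 7, MCM4 from day 5 to 16 and MCM2 from day 7 to 13 were lost (adjusted p from 0.0648 to 0.0916). Without a filter, the first of these was lost (adjusted p = 0.0586). With the depth covariate, ipsilateral MCM7 was higher on day 16 than on day 7 (0.24 ± 0.09, adjusted p = 0.0434), a call absent from the main fit.

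The counts of members moved as follows. On day 5 between horns 5 became 1 with the microRNA and tRNA share as a covariate and 2 from the libraries of the day alone, and 2 to 5 with each library left out. On day 7, 1 became 2 under DESeq2, RLE scaling, no filter or log2 depth as a covariate, 0 with the microRNA and tRNA covariate or the libraries of the day alone, and 0 to 2 with each library left out. On average 5 became 1 with the microRNA and tRNA covariate. That share did not overlap between horns on days 5, 7 and 13, so these counts cannot tell share and horn apart there. The ipsilateral count from day 5 to 7 ranged from 2 to 7 with each library left out. With the horns summed, 6 passed from day 7 to 13 and 6 from day 7 to 16, against 3 and 2 ipsilaterally. From day 7 to 16 contralaterally, 3 became 5 under DESeq2, 6 with the horns summed, and 3 to 5 with each library left out. The cause was not tested.

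Over all genes, with the microRNA and tRNA covariate 2242, 231, 110, 258 and 2062 passed between horns on days 5, 7, 13, 16 and on average, against 4628, 2386, 1165, 922 and 7768. From the day alone, 2884 passed on day 5 and 742 on day 13. DESeq2 called 1790 on day 13 and 1455 on day 16. The share of calls that were higher was 64.2% on day 7, 79.1% on day 13 and 85.4% on day 16 by edgeR and 53.2%, 60.8% and 67.0% by DESeq2, and RLE scaling gave 67.4% on day 13. From day 13 to 16, DESeq2 called 360 and 716 in the ipsilateral and contralateral horn, against 88 and 328, the fit of all 8 groups 208 in the ipsilateral horn, and the summed horns 1349. The summed horns gave 9346 from day 7 to 13 and 10008 from day 7 to 16, against 5641 and 6199 ipsilaterally, and 8397 from day 5 to 7, against 3987 contralaterally. With each library left out, the count went down to 1462 on day 7 between horns, 657 on day 13 and 550 on day 16, and ranged from 19 to 180 and from 134 to 315 between days 13 and 16. RRM2 held as few as 16 reads in a library, which limits its precision on days 13 and 16, and every other member held at least 290.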
